A study of Cucumis x hytivus and Cucumis hystrix and Cucumis sativus with 8 samples.

Results

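MicroRNAs (miRNAs) of mature leaves were compared between a synthetic Cucumis allotetraploid and its wild diploid parent, Cucumis hystrix. The allotetraploid, Cucumis × hytivus, carries the chromosome sets of C. hystrix and of cucumber, C. sativus, and had been selfed to generation 10. The 2 mature allotetraploid libraries were set against the 2 C. hystrix libraries, and all 733 mature sequences of the deposited table, which are all it lists for the 8 libraries of the series, entered the comparison. Each sequence is called an entry here, and 208 of the 733 entries held enough reads to be tested.

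Plants of both groups were raised from single seeds in climate chambers at 25 °C by day and 20 °C by night, with 14 h of light at 280 µmol m-2 s-1 and 10 h of darkness. Seedlings were moved to pots on day 20 after sowing, and a mature leaf is the first fully developed one. No treatment or transgene is given for either group, and the labels name neither an accession of C. hystrix nor the number of plants behind a library. Nor do they say whether replicates came from separate plants. Every p-value here thus reflects the spread among these libraries alone, and that spread may be technical. The extraction text names TRIzol, oligo(dT) beads and 4 libraries, and describes no separate small RNA preparation.

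A plant miRNA is cut from a hairpin precursor and guides an ARGONAUTE protein to matching messenger RNAs, which are then cleaved or less translated. Many families are shared by nearly all land plants and act on transcription factors that shape leaves, time the passage from juvenile to adult growth or relay auxin. Others answer to copper, sulfate or phosphate supply. An allotetraploid inherits miRNA genes and target genes from both parents, so its levels can be set against those of each. The roles given below are best known from Arabidopsis thaliana, and none was measured here.

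The sequences below carry the comparison: the abundant miR166 and miR159 forms, the leading miR156 form, the copper-related miRNAs, and PC-169-5p, a predicted miRNA with no family number. Capitals mark the seed, bases 2 to 8 from the 5′ end, and T stands for U, as in the deposited table. A number in brackets tells apart sequences listed under the same name, and the suffixes 5p, p5, 3p and p3 name the arm of the hairpin.
miR166a(1): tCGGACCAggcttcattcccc
miR166a(2): gCGGACCAggcttcattcccc
miR166g: tCTCGGACcaggcttcattcc
miR159a(1): tTTGGATTgaagggagctct
miR319c: tTGGACTGaagggagctcct
miR156b(1): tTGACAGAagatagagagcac
miR398a(1): tGTGTTCTcaggtcgcccctg
miR408(1): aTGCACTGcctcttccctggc
miR397: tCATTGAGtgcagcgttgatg
PC-169-5p: tCGGGAATagccacacaactc
miR166a(1) and miR166a(2) share a seed and differ in the first base, while miR166g starts further upstream on a like sequence and so has another seed. Among all 733 entries, 3 have the seed of miR166a(1), 10 have that of miR159a(1) and 6 have that of miR156b(1). PC-169-5p is listed on chromosome 7, from 8370983 to 8371159 on the minus strand, as the table gives it. The build and species of that genome were not given in the sources used, and no gene annotation was used.

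The allotetraploid libraries held 207032 and 378234 listed reads and the C. hystrix libraries 348088 and 220793, each sequence counted once. At least 1 whole read was found for 377 and 359 entries in the allotetraploid and for 436 and 325 in C. hystrix. Levels are given in CPM, the reads of an entry relative to the TMM-scaled library size, so the summed CPM of a library can differ from that of another. The fit also used the C. sativus and young-leaf libraries for the spread, the filter and the scaling. C. sativus replicate 2 stood apart, with 56.9% of its reads in families that resemble pieces of ribosomal or transfer RNA (among them miR5368, miR2916, miR894, miR6173 and miR6300), against 5.66% to 15.8% in the other 7 libraries. No miRNA of the table defines a leaf, so the labelled tissue was checked only through markers of other parts, given with the lists they move with.

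No entry passed the test between the mature allotetraploid and C. hystrix. Of 208 entries, 0 passed (0% called; smallest Benjamini-Hochberg adjusted p = 0.979, from the quasi-likelihood test of edgeR), and 0 had an unadjusted p below 0.05. DESeq2 and limma-voom called 0 entries as well, with 2 and 1 entries at an unadjusted p below 0.05. Without C. sativus replicate 2, edgeR's quasi-likelihood test called 0 of 303 entries, with a smallest adjusted p of 0.595. With reads summed by family, 0 of 98 families and single predicted entries were called (0%).

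The fold changes, given as log2 of allotetraploid over C. hystrix, were mostly small. In all, 118 entries had a positive and 90 a negative value, the median was 0.17 and the median size 0.50. A value beyond 1 in either direction was found for 42 entries, or 20.2% of those tested, and for 13 of the 122 entries with a mean of at least 100 CPM in a group. The 2 libraries of each group lay fully apart for 39 of 208 entries (18.8%), of which 17 were higher (8.17%) and 22 lower (10.6%) in the allotetraploid. These percentages are the background for the counts by family below. If every order of the 4 libraries were equally likely, the groups would lie apart for a share of 0.33 of entries, in either direction.

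Little could be told apart at this depth and replication, with the spread taken over all 8 libraries. Standard errors (SE) of log2 fold changes had a median of 1.24, the median reach of the 95% interval was 2.61 to either side, and 0 entries had an interval that lay within 1 log2 unit of no change. In counts simulated over 208 entries with means and spread of all 8 libraries, the test recovered 3% of 4-fold and 30% of 16-fold changes. Simulated entries without a change had a median size of log2 fold change of 0.83, against 0.50 in the data. The simulated counts were thus noisier than the compared libraries, and these rates may be too low. A missing call therefore does not show that levels were equal.

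Libraries of the 2 species correlated as closely as replicates did. Spearman's rho over the 208 entries was 0.841 between the allotetraploid replicates and 0.823 between the C. hystrix replicates. The 4 pairs of an allotetraploid and a C. hystrix library gave 0.847 to 0.888. These values describe the libraries, and entries are not independent replicates.

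**Figure D1:**
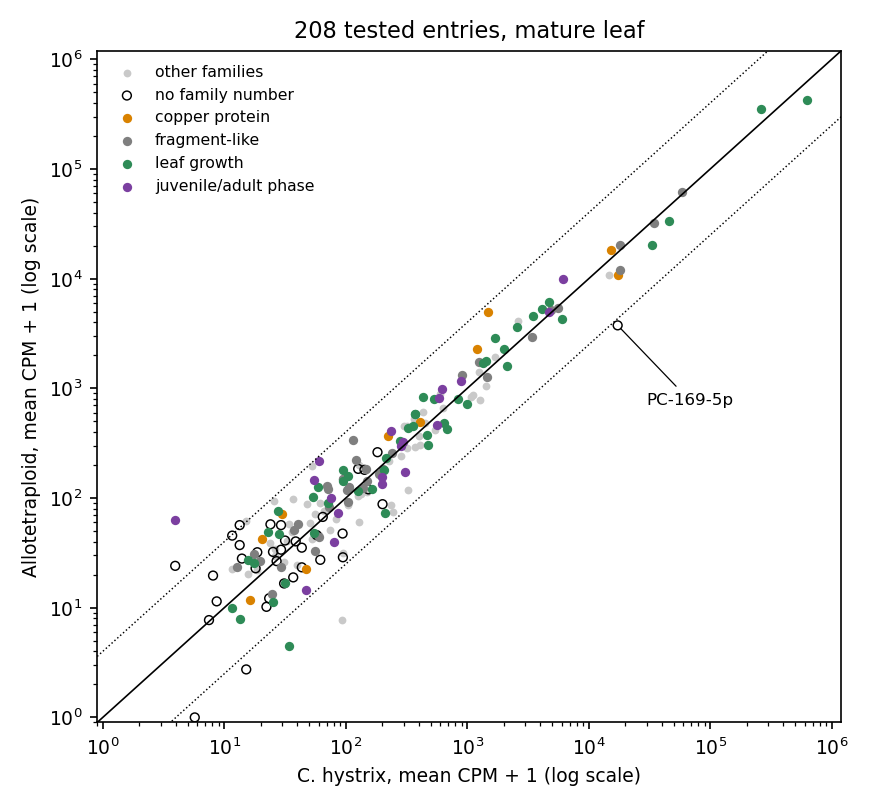
Mean level of each tested entry in the mature allotetraploid (vertical axis) and C. hystrix (horizontal axis), both on log axes in CPM with 1 added. The 208 points lie along the diagonal, PC-169-5p lies below it at 3757 CPM in the allotetraploid against 17332 CPM in C. hystrix, and dotted lines mark 4-fold differences.

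Sequences of 21 nt, the usual length of plant miRNAs, made up 61.1% and 51.3% of listed reads in the allotetraploid, against 71.0% and 63.9% in C. hystrix. The allotetraploid mean was 11.3 points lower, 56.2% ± 6.95 against 67.4% ± 5.02 (SD, n = 2 each), with an exact permutation p of 0.33. With 2 libraries against 2, that is the smallest p the two-sided test can give. Sequences of 20 nt, the length of miR159a(1), were at 25.0% and 37.6% in the allotetraploid and 18.6% and 24.3% in C. hystrix. Sequences of 24 nt, the length of many siRNAs, stayed at 0.134% and 0.136% in the allotetraploid and 0.149% and 0.106% in C. hystrix. Wilson 95% intervals of these shares are at most 0.431 points wide and cover counting error only. In all shares each sequence counted once, whatever its number of listed loci.

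miR166 and miR159 together held most reads of the 4 libraries. The miR166 family, which acts on the class III HD-ZIP regulators of leaf polarity and vasculature, took 44.7% and 44.1% of reads in the allotetraploid and 59.0% and 54.9% in C. hystrix, with no overlap (exact permutation p = 0.33). miR159, which acts on GAMYB-like factors, took 24.1% and 37.6% in the allotetraploid and 18.3% and 24.1% in C. hystrix. Its highest C. hystrix share lay just under its lowest allotetraploid share. Shares of a library sum to a whole, so a larger share of miR159 leaves less for the rest. Each sequence counted once in these shares, and miR166a(1) is listed at 4 loci. If values are a share per locus, miR166 held more and miR159 less than given. With every listed locus counted, the allotetraploid libraries held 467592 and 850754 reads and the C. hystrix libraries 919243 and 557051. The mean miR166, miR159 and 21-nt differences kept their direction under that count.

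**Figure D2:**
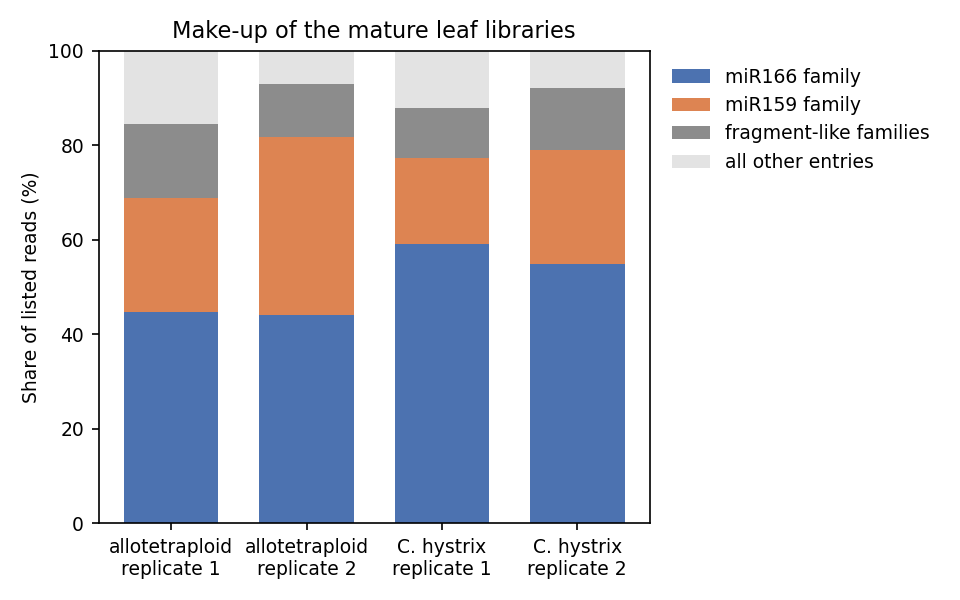
Share of listed reads by family group in each library, in percent, each sequence counted once, with the allotetraploid libraries first. The miR166 part reaches 44.7% and 44.1% in the allotetraploid and 59.0% and 54.9% in C. hystrix.

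Entries without a family number, the predicted miRNAs whose names begin with PC, took 0.634% and 0.605% of reads in the allotetraploid and 1.20% and 1.98% in C. hystrix (exact permutation p = 0.33). PC-169-5p alone held most of these reads in C. hystrix. The rRNA-like and tRNA-like families took 15.8% and 11.2% in the allotetraploid and 10.5% and 13.1% in C. hystrix, so their ranges overlapped. miR156 took 2.08% and 1.51% in the allotetraploid and 1.48% and 0.828% in C. hystrix, again with little between the nearest libraries.

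Among single entries, miR166a(1) had the highest listed level in both groups. It reached 357916 and 503973 CPM in the allotetraploid and 640711 and 622145 CPM in C. hystrix, so both allotetraploid libraries were lower. Its log2 fold change was -0.55 (SE 0.53, 95% interval -1.68 to 0.57), and -0.13 without allotetraploid replicate 1. In bulk leaves, fewer cells of a type and less RNA per cell cannot be told apart. The entry is listed at 4 loci, and the values of such entries may be a share per locus, so its level is not on the scale of entries with 1 locus.

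Other forms of miR166 were also lower in the allotetraploid. miR166a(2) had 21503 and 19469 CPM in the allotetraploid and 31302 and 34553 CPM in C. hystrix, a log2 fold change of -0.68 (SE 0.81). The rarer miR166a(3) had 71.7 and 73.0 CPM in the allotetraploid and 202 and 218 CPM in C. hystrix, a value of -1.53 (SE 1.10). Within each of these groups the replicates were close. miR166g had 21789 and 45175 CPM in the allotetraploid and 45711 and 45865 CPM in C. hystrix, where only allotetraploid replicate 1 was clearly lower, and its log2 fold change of -0.45 became 0.18 without that library. Of 14 tested miR166 entries, 9 had a negative and 5 a positive log2 fold change with a median of -0.42. For 6 of the 14 the groups did not overlap and the allotetraploid was lower, against 10.6% over all 208 entries.

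Exceptions within miR166 varied between replicates. miR166m had 3870 and 5239 CPM in the allotetraploid and 347 and 6596 CPM in C. hystrix. The opposite-arm entry miR166g-5p(1) had 3399 and 1217 CPM in the allotetraploid and 3600 and 448 CPM in C. hystrix. For both, the C. hystrix replicates bracketed the allotetraploid, and all 5 positive entries overlapped.

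miR159a(1), next in level, had 217627 and 481624 CPM in the allotetraploid and 220220 and 305028 CPM in C. hystrix. The groups overlapped, and allotetraploid replicate 2 alone was high. The log2 fold change was 0.41 (SE 0.81, 95% interval -1.30 to 2.12), and -0.44 without that library. miR159a(2), which has 1 more base at the 3′ end, had 3762 and 8543 CPM in the allotetraploid and 4287 and 5164 CPM in C. hystrix, with the same library highest.

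miR319, whose sequence resembles that of miR159 but which acts on TCP regulators of leaf growth, was somewhat higher in the allotetraploid. miR319a had 3574 and 2202 CPM there and 1385 and 2010 CPM in C. hystrix, a log2 fold change of 0.77 (SE 1.25) without overlap. miR319d-p5, from the other arm of a miR319c hairpin, had 121 and 80.0 CPM in the allotetraploid and 35.4 and 70.7 CPM in C. hystrix, also without overlap. For miR319c, the form printed above, values of 3753 and 3461 CPM in the allotetraploid met 1619 and 3501 CPM in C. hystrix, and the groups overlapped. Of 5 tested miR319 entries, 4 were positive, with a median of 0.62.

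**Figure D3:**
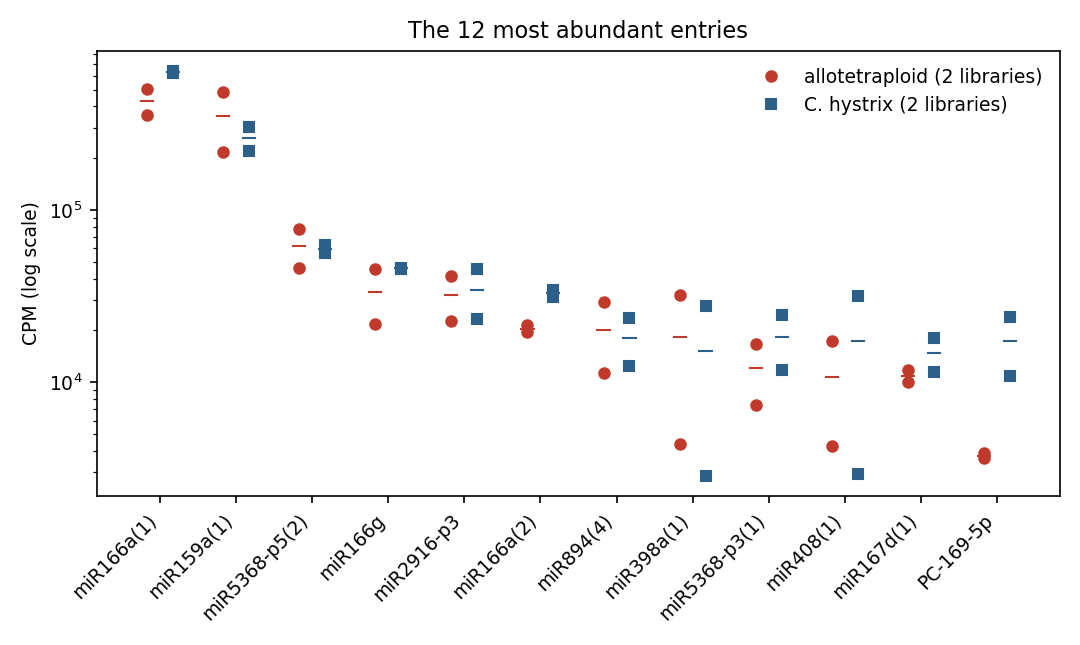
Levels of the 12 entries with the highest mean over the 4 libraries, in CPM on a log axis, with a point for each library. Points of the allotetraploid and of C. hystrix overlap or lie close for most entries, and PC-169-5p is lower in both allotetraploid libraries.

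Over the whole leaf-growth list (miR159, miR164, miR166, miR171, miR319 and miR396), 28 of 49 tested entries were positive and 21 negative, with a median log2 fold change of 0.32 against 0.17 over all 208 entries. The groups did not overlap for 13 of the 49, against the background of 18.8%. Of these, 5 were higher and 8 lower in the allotetraploid, and 6 of the 8 lower ones were miR166 forms.

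miR164, which acts on NAC factors that set leaf margins and organ boundaries, had 4 tested entries, 3 positive and 1 negative, with a median log2 fold change of 0.46. miR164a(1) had 949 and 640 CPM in the allotetraploid and 620 and 436 CPM in C. hystrix, a log2 fold change of 0.59 (SE 1.11). miR164b-3p had 188 and 167 CPM in the allotetraploid and 110 and 76.6 CPM in C. hystrix, a value of 0.92 (SE 1.25). For these 2 entries the groups did not overlap, though for miR164a(1) the nearest libraries differed by little. miR164c, with the seed of miR164a(1), had 551 and 351 CPM in the allotetraploid and 418 and 301 CPM in C. hystrix, and the opposite-arm entry miR164c-p3 had 278 and 83.5 CPM in the allotetraploid and 195 and 218 CPM in C. hystrix. Both overlapped, and the value of miR164c-p3 was negative (-0.20, SE 1.27).

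miR396, which acts on growth-regulating factors, showed no common direction, with 3 positive and 5 negative entries of 8. miR396b(1) had 1747 and 6793 CPM in the allotetraploid and 5329 and 6755 CPM in C. hystrix, so allotetraploid replicate 1 alone was low and the log2 fold change of -0.50 became 0.36 without it. miR396e-p3 had 3574 and 6922 CPM in the allotetraploid and 3993 and 4315 CPM in C. hystrix. miR396e had 376 and 466 CPM in the allotetraploid and 850 and 501 CPM in C. hystrix, without overlap.

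For miR171, which acts on GRAS-domain regulators of the meristem, 8 of 12 tested entries were positive, with a median of 0.28. miR171c, its leading form, had 658 and 779 CPM in the allotetraploid and 1215 and 766 CPM in C. hystrix, so the groups overlapped. miR171u-p5 had 139 and 111 CPM in the allotetraploid and 39.0 and 76.6 CPM in C. hystrix, a log2 fold change of 1.12 (SE 1.37).

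The list of families typical of the shoot apex or leaf primordia (miR160, miR164, miR319, miR390 and miR394) was used as a marker of younger tissue. Of its 13 tested entries 10 were positive and 3 negative, with a median log2 fold change of 0.49. The groups did not overlap for 5 of the 13, 4 higher and 1 lower, against the background of 18.8%. The lower entry was miR390d-p3, with a log2 fold change of -1.70 (SE 1.36). It had 487 and 332 CPM in young allotetraploid leaves and 40.3 and 108 CPM in mature ones. All 41 listed entries of these families summed to 10176 and 7743 CPM in the allotetraploid and 5190 and 7315 CPM in C. hystrix. The groups did not overlap, though the nearest libraries differed by little. In young allotetraploid leaves the 41 entries summed to 10697 and 12642 CPM. Within the mature-leaf sums, miR319 alone gave 7699 and 5906 CPM in the allotetraploid and 3171 and 5794 CPM in C. hystrix. Reads summed by family, with CPM on their own scale, overlapped between the ages for miR319 and miR164. miR319 had 5301 and 7535 CPM in young and 6420 and 5408 CPM in mature allotetraploid leaves. miR164 had 738 and 642 CPM in young and 940 and 670 CPM in mature ones. miR390 was higher in young leaves, at 1407 and 1066 CPM against 224 and 154 CPM in mature ones. miR160 was also higher there, at 158 and 202 CPM against 151 and 111 CPM. In C. hystrix miR390 had 246 and 145 CPM, which overlapped the mature allotetraploid. miR160 had 74.7 and 89.5 CPM in C. hystrix, lower without overlap. Between species, the marker level moved with miR319 and miR164, which belong to it, and its part in the other leaf-growth entries was not tested. miR394a(1), which acts on an F-box gene of the meristem, had 107 and 292 CPM in the allotetraploid and 163 and 94.3 CPM in C. hystrix.

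miR156 holds plants in the juvenile phase by acting on SPL factors, and miR172 acts on AP2-like factors. miR156b(1) had 10077 and 9830 CPM in the allotetraploid and 8896 and 3478 CPM in C. hystrix, a log2 fold change of 0.69 (SE 1.05, 95% interval -1.52 to 2.89). C. hystrix replicate 2 was low, and replicate 1 lay close to the allotetraploid. miR156a(2), with the same seed, was nearly level at 5043 and 4887 CPM in the allotetraploid and 4765 and 4680 CPM in C. hystrix.

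Over the 13 tested miR156 entries, 9 were positive and 4 negative, with a median of 0.38. Some rarer forms had larger values. miR156b(4) had 125 and 167 CPM in the allotetraploid and 60.2 and 47.2 CPM in C. hystrix, a log2 fold change of 1.43 (SE 1.27). miR156d-p3 had the largest value of all tested entries, 4.43 (SE 2.37, unadjusted p = 0.078 in the edgeR fit). It rests on allotetraploid replicate 2, at 115 CPM, since replicate 1 had 8.96 CPM and the C. hystrix libraries 0 and 5.89 CPM, and without replicate 2 it was 1.52. miR156b-p3 had 846 and 1134 CPM in the allotetraploid and 896 and 342 CPM in C. hystrix, and miR156i-p3 had 35.8 and 271 CPM in the allotetraploid and 255 and 141 CPM in C. hystrix, both with overlap.

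miR172 showed no common direction, with 3 positive and 3 negative of 6 tested entries and a median of -0.22. Its leading form miR172b had 278 and 369 CPM in the allotetraploid and 312 and 283 CPM in C. hystrix, a log2 fold change of 0.12 (SE 1.03). The opposite-arm entry miR172c-p5 had 116 and 313 CPM in the allotetraploid and 95.7 and 23.6 CPM in C. hystrix, a value of 1.82 (SE 1.23) without overlap. Also without overlap, but lower, miR172g-p3 had 219 and 122 CPM in the allotetraploid and 252 and 365 CPM in C. hystrix, a value of -0.85 (SE 1.08). miR172a had 98.5 and 167 CPM in the allotetraploid and 181 and 212 CPM in C. hystrix, a value of -0.56 (SE 1.08), and it too was lower without overlap. Of the 19 tested entries of both families 12 were positive and 7 negative, with a median of 0.12, below the 0.17 over all entries. The groups did not overlap for 8 of the 19, 5 higher and 3 lower, against the background of 18.8% over all 208 entries.

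Families of auxin signalling (miR160, miR167, miR390 and miR393) gave the only list with a negative median, -0.41 over 18 tested entries, of which 13 were negative and 5 positive. Non-overlapping groups were found for 4 of the 18, all lower in the allotetraploid, against the background of 18.8% in either direction. miR167, which acts on auxin response factors, made up most of the list, with 9 of 11 entries negative. miR167d(1), its leading form, had 10082 and 11771 CPM in the allotetraploid and 11469 and 18190 CPM in C. hystrix, a log2 fold change of -0.44 (SE 0.99), and the groups overlapped. miR167c(1) had 788 and 1318 CPM in the allotetraploid and 1623 and 1226 CPM in C. hystrix, with the same value of -0.44 (SE 1.13).

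Entries of the opposite arms went in both directions. miR167c-p3(2) had 367 and 685 CPM in the allotetraploid and 358 and 371 CPM in C. hystrix, a log2 fold change of 0.53 (SE 1.04) with overlap. miR167a-p3 had 627 and 939 CPM in the allotetraploid and 1509 and 1026 CPM in C. hystrix, a value of -0.69 (SE 1.21) without overlap. Among rarer entries, chosen for groups that lay apart, miR167d-p3 had 22.4 and 38.3 CPM in the allotetraploid and 88.6 and 100 CPM in C. hystrix, a log2 fold change of -1.61 (SE 1.37). miR390d-p3 had 40.3 and 108 CPM in the allotetraploid and 283 and 200 CPM in C. hystrix, a value of -1.70 (SE 1.36). It pairs with miR390, which starts the making of tasiRNAs against auxin response factors. miR160a, which acts on other auxin response factors, had 85.1 and 66.1 CPM in the allotetraploid and 60.2 and 70.7 CPM in C. hystrix. miR393a-3p, from the precursor of the miRNA of the TIR1 auxin receptors, had 282 and 456 CPM in the allotetraploid and 556 and 248 CPM in C. hystrix. Neither separated the groups.

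The copper-related families miR397, miR398 and miR408, which act on laccases, copper/zinc superoxide dismutases and plantacyanin, differed far more between replicates than between species. miR398a(1) had 32243 and 4390 CPM in the allotetraploid and 27692 and 2865 CPM in C. hystrix. miR408(1) had 17360 and 4258 CPM in the allotetraploid and 31791 and 2930 CPM in C. hystrix. In both species replicate 1 was several times higher than replicate 2, and the groups overlapped fully.

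miR397 followed the same order, with 9177 and 807 CPM in the allotetraploid and 2526 and 419 CPM in C. hystrix. Replicate 1 was 11.4-fold above replicate 2 in the allotetraploid and 6.04-fold above it in C. hystrix. Its log2 fold change of 1.76 (SE 1.27, 95% interval -0.93 to 4.44) was the largest positive one of the list, and it was -0.66 without allotetraploid replicate 1. Set side by side by replicate number, the log2 ratio of allotetraploid to C. hystrix was 1.86 for replicate 1 and 0.95 for replicate 2. The numbers were not found to pair the samples, so this is a description only.

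Over the 10 tested copper entries, replicate 1 was above replicate 2 for 10 of 10 in the allotetraploid and for 10 of 10 in C. hystrix. The median log2 gap was 2.15 in the allotetraploid and 2.90 in C. hystrix, against -0.01 and 0.22 over the other 198 tested entries. All 15 listed entries of the 3 families summed to 64369 and 10543 CPM in the allotetraploid and 65425 and 6726 CPM in C. hystrix. Between species 7 of the 10 tested entries were positive and 3 negative, with a median log2 fold change of 0.48, and the groups overlapped for all 10. In C. sativus, replicate 1 was above replicate 2 for 5 of the 10, and in young allotetraploid leaves for 8 of the 10. The median log2 gap was -0.10 in C. sativus and 0.64 in young leaves, against 1.40 and 0.04 over the other 198 tested entries.

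miR408-5p, from the other arm of the miR408 hairpin, had 3941 and 668 CPM in the allotetraploid and 2083 and 342 CPM in C. hystrix. Its ratio by replicate number was 0.92 and 0.96 on the log2 scale. miR398b had 484 and 250 CPM in the allotetraploid and 400 and 47.2 CPM in C. hystrix, and miR398a(2) had 905 and 83.5 CPM in the allotetraploid and 716 and 106 CPM in C. hystrix. All 3 kept the order of replicates in both species.

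**Figure D4:**
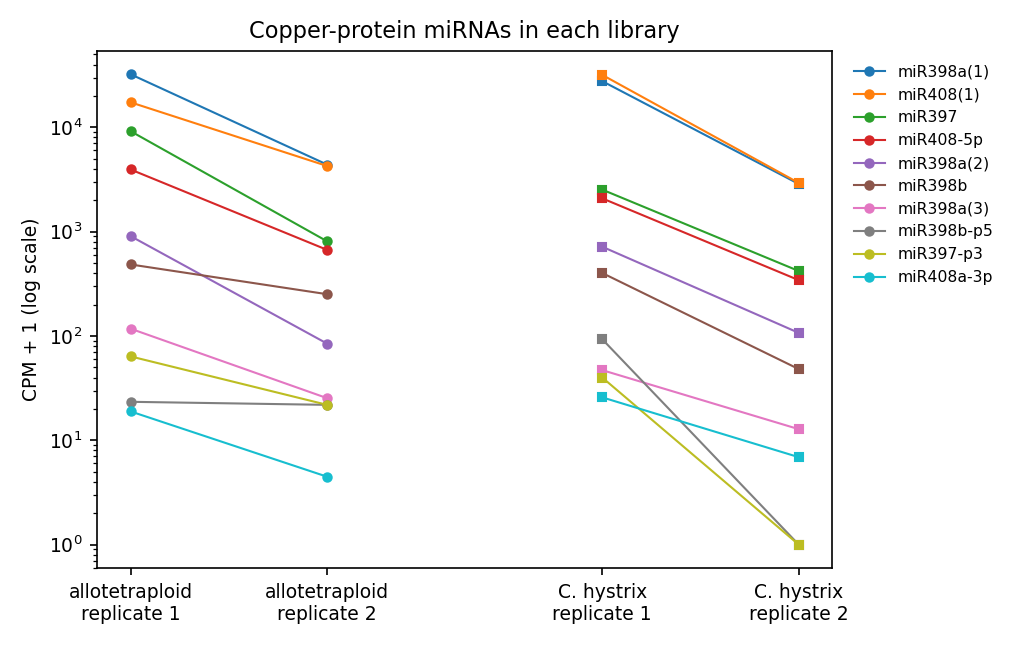
Levels of copper-related entries in the 4 libraries, in CPM with 1 added on a log axis, with a line joining the replicates of a group. Replicate 1 lies above replicate 2 in the allotetraploid and in C. hystrix for each of the 10 tested entries.

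The list of phloem sap markers (miR395, miR398, miR399, miR827 and miR2111) includes miR398, a copper family. Its 25 entries, 8 of them tested, summed to 34477 and 5499 CPM in the allotetraploid and 29740 and 3242 CPM in C. hystrix. Without miR398, the other 18 entries summed to 708 and 713 CPM in the allotetraploid and 783 and 212 CPM in C. hystrix, so in the allotetraploid they did not show the order of the copper entries. Of the 8 tested, 6 were positive, with a median log2 fold change of 0.41, and the groups overlapped for all 8. 

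Nutrient families (miR169, miR395, miR399, miR827 and miR2111) showed no common direction, with 5 positive and 5 negative of 10 tested entries and a median log2 fold change of 0.07. miR395a(1), which acts on sulfate assimilation, had 152 and 34.8 CPM in the allotetraploid and 49.6 and 0 CPM in C. hystrix. miR827(1), which acts on phosphate homeostasis, had 367 and 532 CPM in the allotetraploid, while C. hystrix had 606 CPM in replicate 1 and 0 in replicate 2, the widest gap of any abundant entry there. miR2111a(1), of a family known in Lotus japonicus as a signal from shoot to root, had 107 and 62.6 CPM in the allotetraploid and 106 and 100 CPM in C. hystrix. All 3 overlapped, and 0 of the 7 entries of miR399, the phosphate-starvation family, were tested.

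Within miR169, which acts on NF-YA factors, miR169c had 94.1 and 76.5 CPM in the allotetraploid and 166 and 307 CPM in C. hystrix, a log2 fold change of -1.46 (SE 1.32) without overlap. The leading entry miR169f-p3 had 645 and 570.5 CPM in the allotetraploid and 740 and 124 CPM in C. hystrix. Of 7 tested miR169 entries, 3 were positive and 4 negative.

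The families that act on the small RNA machinery itself were close to level. miR168(1), which acts on ARGONAUTE1, had 1697 and 1127 CPM in the allotetraploid and 1403 and 1108 CPM in C. hystrix, a log2 fold change of 0.17 (SE 0.99). miR162(1), which acts on DICER-LIKE1, had 269 and 310 CPM in the allotetraploid and 411 and 330 CPM in C. hystrix, a value of -0.36 (SE 0.98) without overlap. Of 5 tested entries of the list, 3 were positive and 2 negative, and the 1 entry of miR403, which acts on ARGONAUTE2, was not tested.

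None of the 5 entries of families that act on NBS-LRR resistance genes was tested. Of the 3 entries of the miR482 family, the sequence listed as miR482 had 0 reads in both allotetraploid libraries and 5 and 3 reads in C. hystrix. Against a floor of 3 reads over the allotetraploid libraries, the pooled reads of that sequence were at least 3.01-fold lower there. This floor covers counting error only, not the spread between replicates. The family was not absent from the allotetraploid: miR482c had 26.9 and 0 CPM in the allotetraploid and 7.09 and 0 CPM in C. hystrix, and miR482-p3 had 0 and 6.96 CPM in the allotetraploid and 3.54 and 0 CPM in C. hystrix. Summed over the family, levels were 11.5 and 8.13 CPM in the allotetraploid and 12.2 and 7.26 CPM in C. hystrix. These sums are relative to a larger library size that counts every listed locus. They are therefore not on the scale of the single entries above.

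The families that resemble rRNA or tRNA pieces overlapped between species. miR5368-p5(2) had 45925 and 77522 CPM in the allotetraploid and 62303 and 56080 CPM in C. hystrix, a log2 fold change of 0.06 (SE 0.70). miR2916-p3 had 41429 and 22648 CPM in the allotetraploid and 23437 and 45505 CPM in C. hystrix, and miR894(4) had 29228 and 11270 CPM in the allotetraploid and 12454 and 23749 CPM in C. hystrix. For these 2 entries, allotetraploid replicate 1 and C. hystrix replicate 2, the shallower library of each group, were the high ones. miR5368-p3(1) had 7345 and 16725 CPM in the allotetraploid and 11816 and 24639 CPM in C. hystrix.

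Over the 36 tested entries of these families 22 were positive, with a median log2 fold change of 0.17, equal to that of all entries after rounding. The groups did not overlap for 3 of the 36, all higher in the allotetraploid, against the background of 18.8% in either direction. Among them miR4995(2) had 143 and 115 CPM in the allotetraploid and 49.6 and 88.4 CPM in C. hystrix. miR5083, the entry with the widest replicate gap in the allotetraploid, had 237 and 13.9 CPM there and 181 and 29.5 CPM in C. hystrix, in the order of the copper entries.

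**Figure D5:**
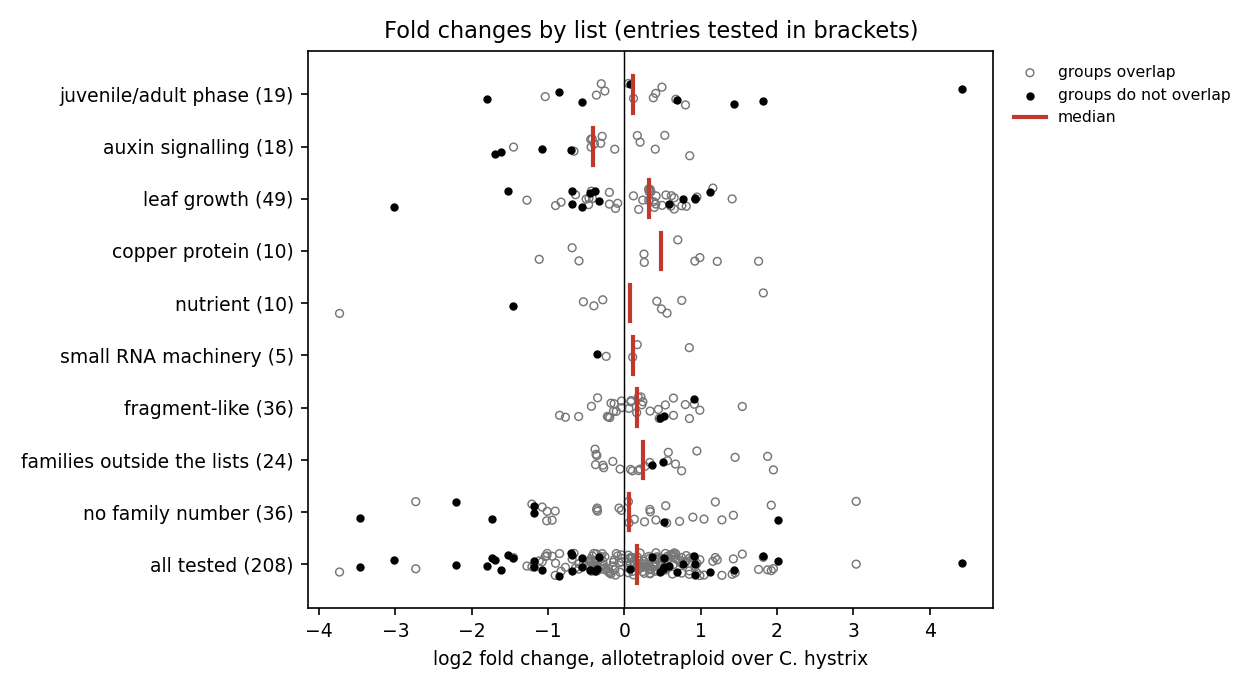
Log2 fold change, allotetraploid over C. hystrix, of each tested entry by list, with the median of each list as a line. The auxin list is centred at -0.41, the medians of the other groups plotted lie between 0.06 and 0.48, and all 208 entries have a median of 0.17.

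Among predicted miRNAs, PC-169-5p was by far the most abundant. It had 3865 and 3649 CPM in the allotetraploid and 10880 and 23784 CPM in C. hystrix, so both allotetraploid libraries lay below both C. hystrix libraries. The log2 fold change was -2.21 (SE 1.12, 95% interval -4.56 to 0.15), with an unadjusted p of 0.065, the smallest of the 208, and an adjusted p of 0.979 by edgeR's quasi-likelihood test. In C. sativus it had 23.6 and 0 CPM. The sequence was thus far more abundant in C. hystrix and in the allotetraploid than in the cucumber parent.

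The C. sativus libraries enter only through the shared spread, the filter and the scaling, and this bears on PC-169-5p. In the family-sum table, edgeR's quasi-likelihood test (p adjusted by Benjamini-Hochberg) called it when either C. sativus library was left out (adjusted p = 0.0037 over 155 without replicate 1 and 0.0033 over 157 without replicate 2, against 98 tested with all libraries). With the 4 compared libraries alone the smallest adjusted p of that table was 0.161. Among single entries the smallest adjusted p stayed at 0.657 and 0.595 without those libraries.

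Other predicted miRNAs were far rarer. PC-132-5p had 31.3 and 24.3 CPM in the allotetraploid and 99.2 and 88.4 CPM in C. hystrix, a log2 fold change of -1.74 (SE 1.41). PC-159-3p had 62.7 and 111 CPM in the allotetraploid and 152 and 248 CPM in C. hystrix, and PC-3-3p had 17.9 and 34.8 CPM in the allotetraploid and 56.7 and 64.8 CPM in C. hystrix. PC-124-3p went the other way, with 62.7 and 48.7 CPM in the allotetraploid and 24.8 and 0 CPM in C. hystrix. None of these 4 overlapped between the groups, which the rule that named them required. Over the 36 tested entries without a family number 19 were positive and 17 negative, with a median of 0.06. Of the 36, 7 did not overlap, 2 higher and 5 lower, near the background of 18.8%.

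The balance of the 2 arms of a hairpin was compared for 41 pairs, as the log2 ratio of the arm with the higher mean to the other with 1 CPM added. For 37 pairs the same arm led in all 4 libraries. The groups overlapped for 29 pairs and lay apart for 12 (29.3%), where the ratio was higher in the allotetraploid for 4 and lower for 8. miR408(1) exceeded miR408-5p by 2.14 and 2.67 log2 units in the allotetraploid and by 3.93 and 3.10 in C. hystrix. This pair is 1 of the 12 whose ratio lay apart, although the levels of both arms followed the replicates. No arm ratio was tested.

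For miR396b(1) and miR396e-p3, listed on one hairpin of chromosome 1 from 12055087 to 12055240, the leading arm differed. The log2 ratio of miR396b(1) to miR396e-p3 was -1.03 and -0.03 in the allotetraploid and 0.42 and 0.65 in C. hystrix. miR396e-p3 is also listed on chromosome 2, so its reads cannot be given to either locus. The pair of miR390d-p3 and miR390a had ratios of -0.98 and 1.60 in the allotetraploid and 1.98 and 2.72 in C. hystrix, where the level of miR390a itself overlapped, at 80.6 and 34.8 CPM in the allotetraploid and 70.9 and 29.5 CPM in C. hystrix.

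Within families, the share of the leading sequence lay apart between the groups for 14 of 32 families (43.8%), often by little. miR166a(1) held 86.4% and 86.9% of miR166 CPM in the allotetraploid and 88.1% and 87.1% in C. hystrix. Each sequence counted once here as well, so this share depends on how its 4 listed loci are counted. miR159a(1) held 97.4% of its family in both allotetraploid libraries, and 97.3% and 97.4% in C. hystrix. miR156b(1) held 52.3% and 49.5% of its family in the allotetraploid and 48.7% and 32.2% in C. hystrix. In C. hystrix replicate 2, miR156a(2) stood above miR156b(1), at 4680 against 3478 CPM.

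At least 1 whole read was found in both allotetraploid libraries for 257 entries, in both C. hystrix libraries for 261, and in all 4 for 198. Whole reads in both allotetraploid libraries and none in C. hystrix were found for 11 entries, of which 0 were tested. Of the 11, 8 had a read in C. sativus and 7 had no family number. Among all 733 entries, 287 have no family number, and 487 and 317 had a whole read in the C. sativus libraries. The most abundant of the 11, miR390-p3, had 11 and 8 reads in the allotetraploid and 4 in C. sativus replicate 1. Its pooled allotetraploid reads were at least 5.60-fold higher against a floor of 3 reads over the C. hystrix libraries. Such a floor covers counting error only, not the spread between replicates, and the entries were chosen for having no read in the other group.

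The reverse pattern, reads in both C. hystrix libraries and none in the mature allotetraploid, was found for 25 entries, of which 1 was tested. Of the 25, 15 had a read in C. sativus and 20 had no family number. PC-171-5p, the most abundant, had 0 reads in both mature allotetraploid libraries and 11 and 1 in C. hystrix. Against the same floor, its pooled reads were at least 4.52-fold lower in the allotetraploid, but most of them came from C. hystrix replicate 1. In young allotetraploid leaves PC-171-5p had 15 and 14 reads. A read in a young-leaf library of the allotetraploid was found for 23 of these 25 entries. Of all 733 entries, 551 and 497 had a whole read in the young-leaf libraries.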

How the data were processed

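Values came from the deposited table of listed miRNAs, with 843 lines for 733 mature sequences of 18 to 25 nt, and a sequence listed at several loci was taken once. The submitters' processing notes name Bowtie 0.12.8. Neither the genome build and species nor the miRBase release or the rule of counting is given in the sources used here. Columns headed raw reads, per the file headers, hold the authors' estimated counts: 80.5% of the values were whole numbers within 1e-06, and all were rounded. The deposited normalized reads, a signal equal to the raw reads times 1 constant per library, served only as an alternative scaling. Values of sequences at 2 loci were whole in 56.8% of cases and in 90.6% after multiplying by 2, within 0.001, so levels are not on 1 scale across entries with different numbers of loci.

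edgeR 4.0.16 in R 4.3.3 was run with filterByExpr, TMM and a robust quasi-likelihood fit over all 8 libraries with 4 residual degrees of freedom. Groups and replicate numbers came from the sample titles. P-values were two-sided and adjusted over 208 entries with a threshold of 0.05. The kept entries held at least 99.47% of reads. The SE is the size of a log2 fold change divided by the root of its F statistic. For family sums, reads of every listed locus were added, so their CPM are on another scale than those of entries. DESeq2 1.42.0 and limma 3.58.1 served as alternatives. Counts of 2 libraries of a group differed beyond sampling noise in every group, so none was treated as a duplicate. Spreads of levels rest on 2 libraries a group.

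Named entries are the 12 most abundant, the 8 highest and 8 lowest fold changes with at least 50 CPM and no overlap, the leading and the abundant (at least 100 CPM) entries of each listed family, up to 5 seen in 1 group only per direction, and the 5 with the widest replicate gaps per group, apart from rarer members given only as counts. miR390a, miR482c and miR482-p3 were named after their values were seen. The entries, lists and tests were chosen with earlier results of these data known. No list was tested as a set. Every column of library values matched a sample.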

Additional observations from a re-analysis of the deposited data

How the results depend on the processing

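None of the 2 counts of calls left 0 under the other scalings, filters, tools, sample sets and tables, and only the family sums reached 1 (range 0 to 1) when single libraries were left out, through PC-169-5p without either C. sativus library. Scaling by the constants of the deposited normalized reads was added after the data were seen. Scaling to the conserved families moved the median of all entries to 0.42, with 138 positive and 70 negative values, and that of the auxin list to -0.22. No list median changed sign under another scaling. The replicate block called 0 entries with 1 at an unadjusted p below 0.05 in the edgeR fit. Same-number deviations of the 2 groups correlated at -0.07, so the numbers were not taken as pairs. Depth and 2 libraries a group limit every value.

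Of 63 entries of the report examined for this, 31 kept the sign of the log2 fold change under every alternative run, and the cause of each sign change was not tested. Without a filter on low values, the log2 fold change was -0.0572 for miR166g-5p(1), -0.11 for miR156a(2), -0.0762 for miR172b, -0.0173 for miR168(1) and -0.14 for miR5368-p5(2). Scaling to the conserved families gave 0.0476 for miR393a-3p, 0.0311 for miR2111a(1), 0.20 for miR164c-p3 and 0.23 for miR2916-p3. With the replicate block, miR393a-3p had 0.13 and miR2916-p3 had 0.10, and with the 6 mature-leaf libraries alone miR393a-3p had 0.0374. limma-voom gave -0.0298 for miR398a(2) and -0.64 for miR5083.

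Leaving out 1 library at a time gave log2 fold changes on both sides of 0 for 30 entries. The ranges were -0.0634 to 0.25 for miR156a(2), -2.60 to 0.65 for miR156i-p3, -0.44 to 1.07 for miR159a(1), -0.49 to 1.05 for miR159a(2), -1.23 to 0.18 for miR166g, -0.62 to 2.23 for miR166g-5p(1) and -0.58 to 3.81 for miR166m. They were -1.005 to 0.0859 for miR167c(1), -0.79 to 0.0201 for miR167d(1), -0.21 to 2.22 for miR169f-p3, -0.25 to 0.51 for miR172b, -0.61 to 0.49 for miR2916-p3, -0.0280 to 1.23 for miR319c and -0.65 to 0.54 for miR393a-3p. They ran over -0.41 to 1.37 for miR394a(1), -1.95 to 0.36 for miR396b(1), -0.38 to 0.93 for miR396e-p3, -0.66 to 3.39 for miR397, -1.59 to 2.50 for miR398a(1), -2.10 to 2.03 for miR398a(2) and -0.0872 to 2.84 for miR398b. Further ranges were -1.82 to 1.73 for miR408(1), -0.66 to 2.58 for miR408-5p, -2.70 to 1.88 for miR5083, -1.49 to 0.16 for miR5368-p3(1), -0.52 to 0.59 for miR5368-p5(2), -0.33 to 10.0 for miR827(1) and -0.49 to 0.72 for miR894(4). For miR164c-p3 the range was -1.11 to 0.27 and for miR167c-p3(2) -0.15 to 1.11. For the share of 24-nt reads the difference between the means ran from -0.0140 to 0.0286 points, and for the rRNA-like and tRNA-like families from -0.61 to 4.04 points.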

Other observations

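The 26 conserved families together had 112 tested entries, of which 61 had a positive and 51 a negative log2 fold change of allotetraploid over C. hystrix, with a median of 0.14. The 2 groups lay apart for 10 entries higher and 17 lower in the allotetraploid, against 8.17% and 10.6% over all 208 entries. The 88 families outside every list, many known from few plant species, had 24 tested entries with 16 positive and 8 negative values and a median of 0.24.

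Some of these families were abundant, and the entries given here were chosen after their values were seen. miR858, which acts on MYB factors of flavonoid synthesis in Arabidopsis thaliana, had 430 and 1231 CPM in the allotetraploid and 670 and 1491 CPM in C. hystrix, so replicate 2 was the higher library of both groups. miR8155(5) had 6252 and 2024 CPM in the allotetraploid and 2523 and 2676 CPM in C. hystrix, where allotetraploid replicate 1 alone stood out. miR8155(1) had 528 and 379 CPM in the allotetraploid and 340 and 301 CPM in C. hystrix, without overlap. Outside these families, miR169g of the nutrient list had the lowest log2 fold change of all tested entries. It had 13.4 and 0 CPM in the allotetraploid and 0 and 183 CPM in C. hystrix, so its value rested on C. hystrix replicate 2.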
